A study of Homo sapiens with 6 samples.

Results

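The genes described here move proteins into mitochondria, degrade proteins inside them, or set the shape of the mitochondrial network. They comprise every row of the deposited expression table whose symbol starts with TOMM or TIMM followed by a number, together with LONP1, CLPP, CLPX, YME1L1, AFG3L2, SPG7, MFN1, MFN2, OPA1, DNM1L and FIS1. The rule used symbols only and no measured value, and it took 35 of the 26228 rows. It was set with earlier results of these data known. RNA was measured in AsPC-1, an established human pancreatic adenocarcinoma line with epithelial features, so all libraries come from 1 cell line and no untransformed cells were included. In the control group, 3 libraries came from cells given vehicle. In the other group, 3 libraries came from cells treated with DON, that is 6-diazo-5-oxo-L-norleucine. It resembles glutamine and inactivates enzymes that use it. Both groups were kept for 24 h without serum before poly(A) RNA was taken, and the labels give no dose and no genetic change. The design text states that the comparison was made to find genes raised by DON.

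Nearly all mitochondrial proteins are encoded in the nucleus and made in the cytosol. They cross the outer membrane through the TOM complex, and from there TIM23 takes proteins with a cleavable presequence to the matrix or inner membrane, while the small TIM chaperones carry hydrophobic proteins to TIM22. Matrix proteases (LONP1, and CLPX with CLPP) and inner membrane proteases (AFG3L2 with SPG7, and YME1L1) remove damaged or unassembled proteins. MFN1, MFN2 and OPA1 fuse mitochondria, and DNM1L, which is recruited to the outer membrane by adaptors such as FIS1, divides them.

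With DON, genes of the TOM complex, the small TIM chaperones, the proteases and the fusion and fission machinery were called in both directions, and the inner membrane translocases held 1 call. The values are FPKM, which scale fragments to transcript length and library depth, so levels can be compared between genes per length. DON was compared with vehicle by limma on log2(FPKM + 1) over the 11471 genes that reached 1 FPKM in at least 3 of the 6 libraries, and a gene was called where the adjusted p was below 0.05. Of the 35 genes, 33 were tested. Limma called 13 of them (39.4%), beside 38.9% of all tested genes, so their share was close to the background. They split into 5 higher in DON (15.2%, beside 18.3% of all tested genes) and 8 lower (24.2%, beside 20.6%). None was called at a change of at least 2-fold on the fitted scale, where 6.99% of all tested genes were. The median log2 fold change (DON minus vehicle) was -0.11 over the 33 genes and -0.01 over all tested genes, and single values ran from -0.92 to 0.77. The libraries of the 2 groups did not overlap for 17 of the 33 genes (51.5%), the same share as over all tested genes (51.5%). Because the RNA was bulk, a lower share of cells with a transcript and less of it per cell cannot be told apart.

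**Figure D1:**
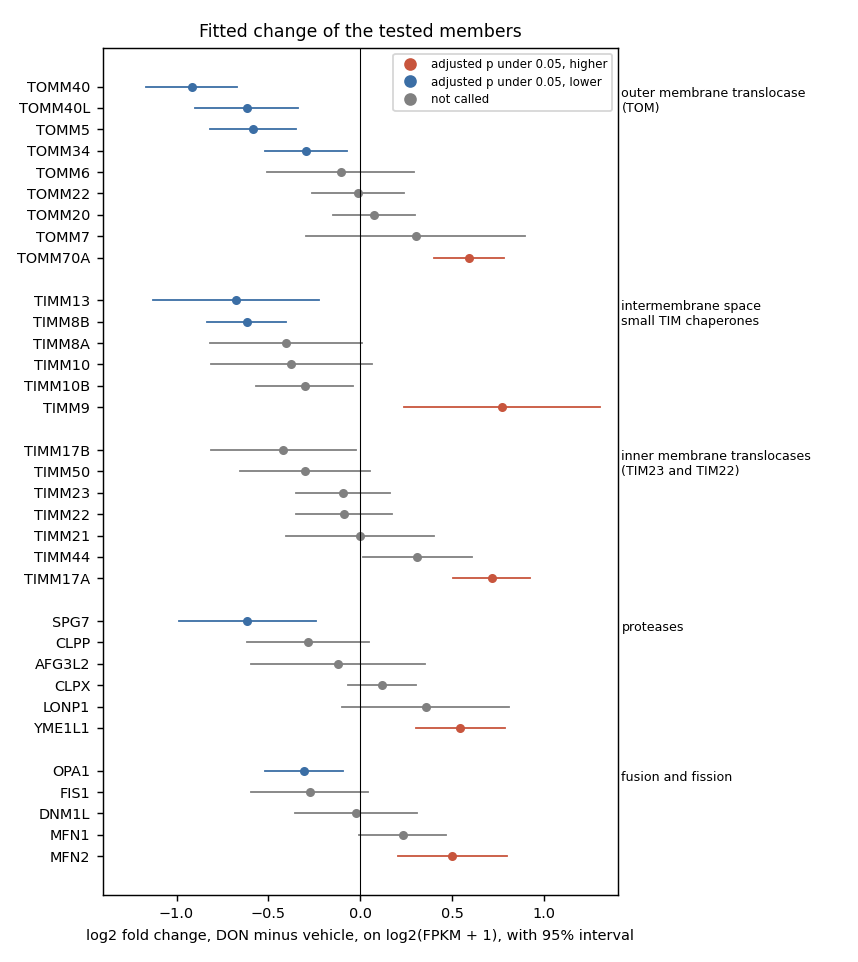
Fitted log2 fold change (DON minus vehicle, on log2(FPKM + 1)) of the 33 tested genes with its 95% interval, ordered within machine; red and blue points have a limma adjusted p under 0.05 and grey points do not. The TOM, small TIM, protease and fusion and fission groups each hold genes called in both directions.

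Of the 6 libraries, vehicle 1, vehicle 2 and DON 1 stood apart from vehicle 3, DON 2 and DON 3 on the second principal component (19.7% of the variance), without a clear gap, while the first (61.6%) parted the treatments. Along this split, the rank correlation across genes between a library's deviation and transcript GC content was 0.232 to 0.504 in the former and -0.419 to -0.404 in the latter. FPKM sums ran from 525200 to 556950, and the 35 genes made up 1583 to 1936 of them. The libraries carried epithelial markers: KRT19 lay between 1527 and 2377 FPKM and EPCAM between 928 and 1201 FPKM in all libraries. Of the epithelial and ductal markers, 10 had a value in each library, while KRT8 and KRT18 had failure marks. The summed level of these 10 was 4071 to 4833 FPKM in vehicle and 3207 to 4262 in DON. Limma called 5 of the 10 lower, beside 20.6% of all tested genes, and none higher, beside 18.3%. Summed fibroblast markers stood at 142 to 173 FPKM in vehicle and 89.7 to 125 in DON, where 2 of 8 reached 1 FPKM in 3 libraries and LUM made up most of the sum. COL1A1, COL3A1, PDGFRB and THY1 stayed below 0.1 FPKM. Immune markers summed to 232 to 357 FPKM in vehicle and 102 to 152 in DON, mostly LYZ. Of these 7 markers 2 reached 1 FPKM in 3 libraries, LYZ and CD68, and CD3E stood at the table's lowest value of 0.01 throughout. LYZ was called lower (mean 250 FPKM in vehicle and 98.5 in DON), while CD68 had a higher mean in DON (22.6 and 32.8) without a call. None of 4 endothelial and none of 7 acinar or endocrine markers reached 1 FPKM in 3 libraries. The part of these marker shifts in the results was not tested.

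DON was also set against vehicle within each side of the library split, DON 1 against vehicle 1 and vehicle 2, and DON 2 and DON 3 against vehicle 3. The groups of all 13 called genes do not overlap, so their direction is the same on both sides by arithmetic, and only the sizes carry information. No label names this split, which was read from the values of these same libraries, so p-values with its term are descriptive. A term for the split raised the calls to 20 (60.6%, beside 52.6% of all tested genes), 9 higher and 11 lower. These included all 13 plus LONP1, MFN1, TIMM44 and TOMM7 on the higher side and CLPP, TIMM10B and TIMM17B on the lower side. The 3 genes whose sign differed between the sides were TIMM21, TIMM22 and TOMM6, and none of them was called.

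**Figure D2:**
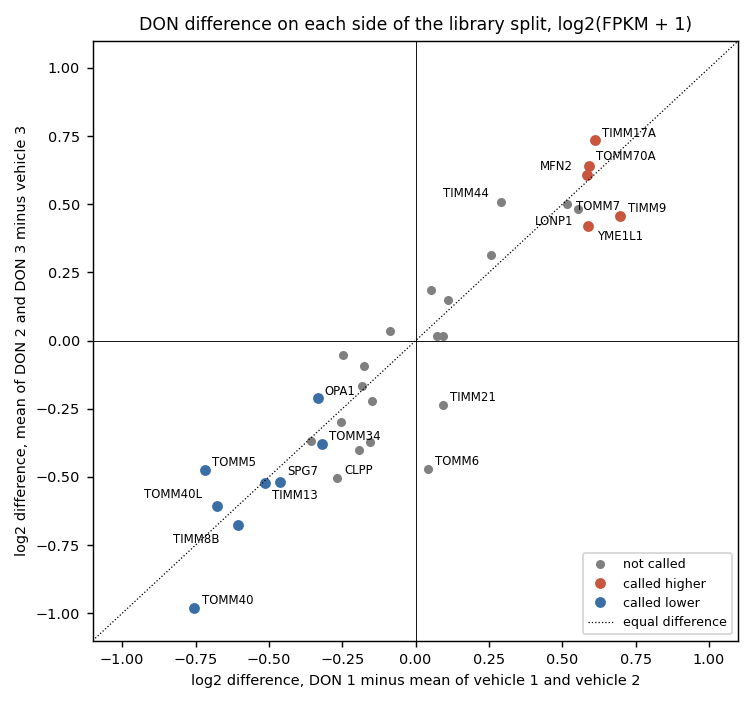
Difference between DON and vehicle in log2(FPKM + 1) for the 33 tested genes, measured within vehicle 1, vehicle 2 and DON 1 (horizontal) and within vehicle 3, DON 2 and DON 3 (vertical). The called genes have groups that do not overlap, which fixes their quadrant, so only their distance from the dotted line of equal difference can be read. TOMM6 and TIMM21 lie at the lower right.

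Promoters of nuclear genes for mitochondrial proteins are known to carry sites for NRF1 and for ETS factors such as GABP. In the RefSeq promoter table (GRCh38.p14), which covers 250 bases before to 50 bases after each start, 31 of the 35 genes had an entry, TOMM70A under its newer symbol TOMM70. CLPP, TIMM8B, TOMM5 and YME1L1 had none. The NRF1 core GCGCATGC (GCATGCGC on the other strand) was present in 5 of 31 (16.1%), beside 3.68% of all 27305 symbols in the table. These were LONP1, OPA1, TIMM10B, TIMM9 and TOMM7. The ETS core ACTTCCGG (CCGGAAGT on the other strand) was found in 7 of 31 (22.6%), beside 4.95% of all. These were FIS1, MFN1, TIMM10, TIMM10B, TOMM20, TOMM6 and TOMM70A. TGATGNAA, the core of the C/EBP-ATF element bound by ATF4 and CHOP, was found in TIMM22 only (3.23%, beside 4.46% of all), on either strand. The motifs do not overlap in sequence with one another. A match is a description of the letters and not a bound site. Of the 5 genes with the NRF1 core 1 was called higher and 1 lower. Of the 7 with the ETS core 1 was called higher and none lower, and TIMM22 was not called. Over all tested genes 18.3% were called higher and 20.6% lower, and these counts are too small to say anything about the motifs. The 5 stretches below, 60 bases each with the match in capitals, are shown for a gene that rose (TIMM9, with TOMM70A for the ETS core), a gene that fell (OPA1) and genes not called (TOMM7 and TOMM20). TIMM9 lies at chr14:58427626-58427685 (minus strand, 154 to 95 bases before the start), OPA1 at chr3:193593088-193593147 (plus, 120 to 61), and TOMM7 at chr7:22822939-22822998 (minus, 149 to 90). TOMM70A lies at chr3:100401160-100401219 (minus, 130 to 71) and TOMM20 at chr1:235128838-235128897 (minus, 60 to 1).
TIMM9: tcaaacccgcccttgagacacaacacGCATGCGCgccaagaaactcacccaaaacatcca
OPA1: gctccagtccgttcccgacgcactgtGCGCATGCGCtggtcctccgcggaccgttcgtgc
TOMM7: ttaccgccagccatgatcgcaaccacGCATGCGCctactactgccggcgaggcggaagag
TOMM70A: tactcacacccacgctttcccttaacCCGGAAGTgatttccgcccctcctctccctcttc
TOMM20: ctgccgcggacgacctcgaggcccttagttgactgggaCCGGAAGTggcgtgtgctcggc

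In the outer membrane group, the channel and a small subunit fell while a receptor rose. Limma called 4 of 9 tested genes lower (44.4%, beside 20.6% of all tested genes), and these include TOMM34, which is not a subunit. It called 1 higher (11.1%, beside 18.3%), and the median log2 fold change was -0.11. TOMM40, the channel of the TOM complex, stood at 34.8, 34.2 and 33.5 FPKM in vehicle 1 to 3 and at 20.0, 17.4 and 15.6 FPKM in DON 1 to 3. Every DON library lay far below every vehicle library. Its mean fell 1.93-fold, from 34.2 ± 0.664 to 17.7 ± 2.23 FPKM (here and below, group means with SD, n = 3), with a limma log2 fold change of -0.92 ± 0.10 (SE) and an adjusted p of 0.000803. With a GC correction the fitted change was smaller, at -0.64 (limma adjusted p = 0.00154). TOMM40L, a paralog of the channel, was low, at 2.23, 2.45 and 2.42 FPKM in vehicle and 1.09, 1.42 and 1.08 FPKM in DON. The groups did not overlap, and the fitted change of -0.62 ± 0.12 (limma adjusted p = 0.00671) understates the 1.98-fold ratio of means because of the pseudocount of 1. TOMM5, a small subunit that helps assemble the channel, measured 119, 129 and 117 FPKM in vehicle and 74.97, 90.68 and 77.31 FPKM in DON. It fell 1.501-fold without overlap (log2 fold change -0.58 ± 0.10, limma adjusted p = 0.00438).

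TOMM70A, the receptor that takes up hydrophobic carrier proteins with their cytosolic chaperones, went the other way. It measured 25.1, 26.9 and 24.1 FPKM in vehicle and 39.7, 38.8 and 37.6 FPKM in DON, with little spread in either group. The mean rose 1.52-fold from 25.4 ± 1.41 to 38.7 ± 1.04 FPKM (log2 fold change 0.59 ± 0.08, limma adjusted p = 0.00167). The general receptors were not called. TOMM20, which recognises presequences, stood at 128, 125 and 111 FPKM in vehicle and 137, 128 and 119 FPKM in DON (log2 fold change 0.07, limma adjusted p = 0.563, overlapping groups). TOMM22, the central receptor that organises the complex, had a log2 fold change of -0.01 and vehicle values of 73.8 to 83.6 FPKM against 70.8 to 88.5 FPKM. The sign of TOMM20 turned with a GC correction and that of TOMM22 with the split term.

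The other small subunits, which steady the complex, were not called. TOMM7 was the most abundant of the 35 transcripts, at 359, 380 and 241 FPKM in vehicle and 528, 398 and 293 FPKM in DON. These values overlapped, and it was not called (log2 fold change 0.30 ± 0.25, limma adjusted p = 0.380). Within each side of the split DON exceeded vehicle, by 0.51 and 0.50 on the log2 scale, and with the split term the limma adjusted p was 0.00907 (0.00907 to 0.773 over the 15 alternatives). TOMM6 lay at 74.9 to 122 FPKM in vehicle and 83.7 to 87.6 FPKM in DON, with a log2 fold change of -0.11. TOMM34, a cytosolic co-chaperone of precursor proteins and not a subunit of the complex, measured 26.5 to 30.8 FPKM in vehicle and 21.4 to 24.2 FPKM in DON. Its call was weak, with a log2 fold change of -0.30 ± 0.09 and a limma adjusted p of 0.0427. It was lost in each of the 6 fits that left out 1 library (0.0590 to 0.110), and with the GC correction (0.0816), over alternatives that ran from 0.00320 to 0.110. TOMM20L, a relative of TOMM20, was not tested, since it stood at 0.01 to 0.258 FPKM in vehicle and 0.01 to 0.266 FPKM in DON.

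**Figure D3:**
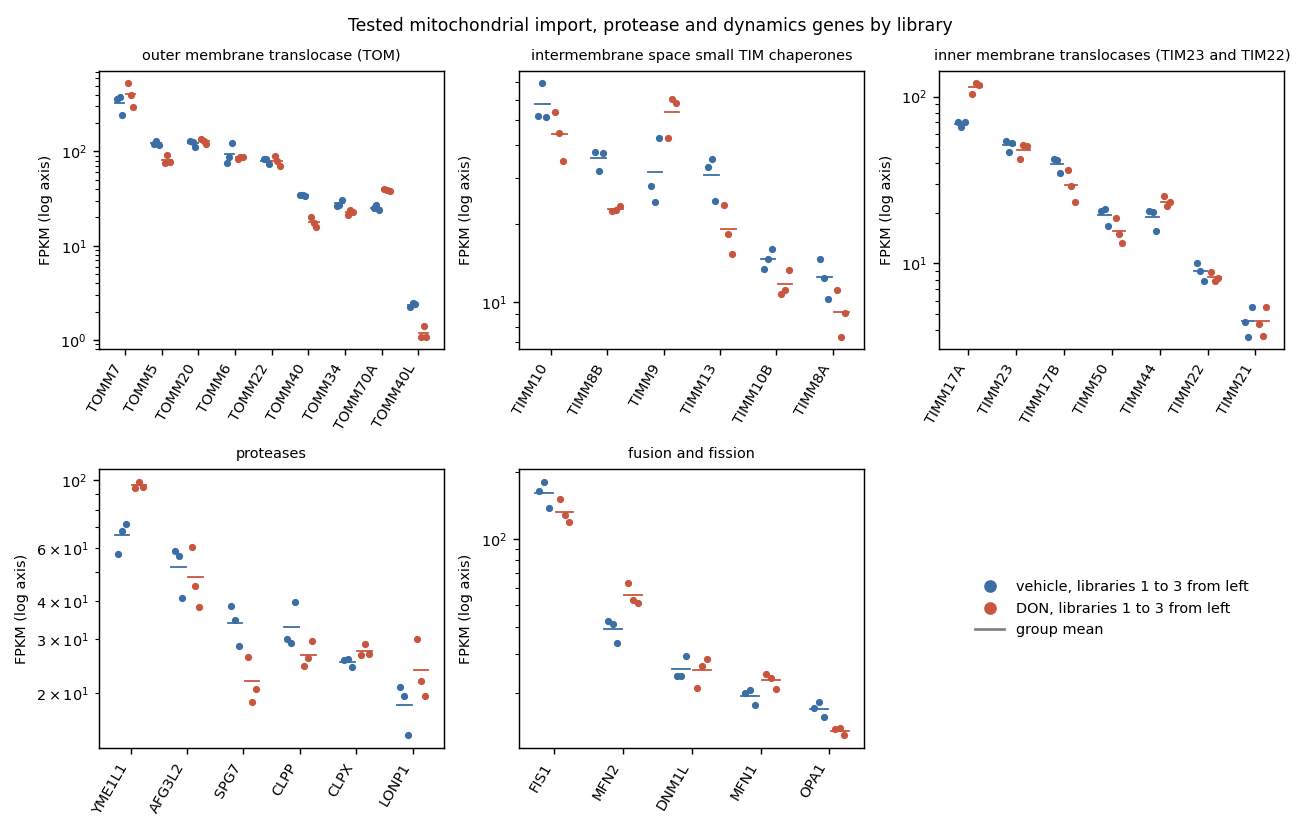
FPKM on log axes of the 33 tested genes in each library, with vehicle 1 to 3 and DON 1 to 3 from left to right in blue and red and a line at each group mean; genes are ordered by their vehicle mean within a machine. TOMM40 falls from 34.2 to 17.7 and TIMM17A rises from 68.8 to 114 with clear gaps between groups, whereas TOMM7 spans 241 to 528 with overlap.

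Among the small TIM chaperones of the intermembrane space, limma called 1 of 6 higher (16.7%, beside 18.3% of all tested genes) and 2 lower (33.3%, beside 20.6%). Their median log2 fold change was -0.39. TIMM9, which forms a ring with TIMM10 that escorts carrier proteins, was the one that rose. It stood at 28.0, 24.2 and 42.8 FPKM in vehicle and at 42.8, 60.1 and 58.3 FPKM in DON, so that vehicle 3 nearly met DON 1 and the groups were barely apart. The mean went from 31.7 ± 9.85 to 53.8 ± 9.50 FPKM, a 1.70-fold rise (log2 fold change 0.77 ± 0.23, limma adjusted p = 0.0337). Leaving out vehicle 1 (0.101), vehicle 2 (0.0997), DON 2 (0.113) or DON 3 (0.0933) ended this call, with a range of 0.00141 to 0.178 over the 15 alternatives. TIMM10, its partner, lay at 52.1, 69.4 and 51.3 FPKM in vehicle and 53.9, 44.6 and 34.8 FPKM in DON and was not called (-0.38, limma adjusted p = 0.149).

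TIMM8B, a member of the TIMM8 branch of these chaperones, fell, with DON values close together. It measured 37.6, 32.0 and 37.3 FPKM in vehicle and 22.5, 22.6 and 23.4 FPKM in DON, all below vehicle. The 1.56-fold fall, from 35.6 ± 3.17 to 22.8 ± 0.501 FPKM, had a log2 fold change of -0.62 ± 0.09 and a limma adjusted p of 0.0024. TIMM13, which forms a ring with TIMM8A, stood at 33.0, 35.3 and 24.4 FPKM in vehicle and 23.6, 18.2 and 15.3 FPKM in DON. The groups were separated only narrowly, between vehicle 3 and DON 1, which lie on opposite sides of the library split. Its 1.62-fold fall (-0.68 ± 0.19, limma adjusted p = 0.0294) missed the threshold when vehicle 1 (0.0900), vehicle 2 (0.0952), DON 2 (0.0921) or DON 3 (0.0843) was left out, and the alternatives spanned 0.00200 to 0.154. TIMM8A, the subunit lost in deafness-dystonia syndrome, had a log2 fold change of -0.40 (limma adjusted p = 0.108), which passed without DON 1 (0.0425, range over alternatives 0.0344 to 0.345). TIMM10B, which docks the chaperones on TIM22, went from 14.7 ± 1.28 FPKM in vehicle to 11.7 ± 1.37 FPKM in DON without overlap. Its limma adjusted p was 0.0697, and 0.0128 with the split term (0.0128 to 0.205 over the alternatives).

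Of the 7 tested inner membrane translocase genes, 1 was called higher (14.3%, beside 18.3% of all tested genes) and none lower (beside 20.6%). Their median log2 fold change was -0.09. TIMM17A, a core subunit of the TIM23 channel, stood at 70.2, 65.4 and 70.8 FPKM in vehicle and at 104, 120 and 117 FPKM in DON. No value came near the other group. The 1.65-fold rise, from 68.8 ± 2.95 to 114 ± 8.48 FPKM, had a log2 fold change of 0.71 ± 0.09 and a limma adjusted p of 0.00113. TIMM17B, the paralog that can take its place in the channel, did not rise with it: it measured 42.2, 41.6 and 34.9 FPKM in vehicle and 36.6, 29.2 and 23.4 FPKM in DON. The log2 fold change was -0.42 ± 0.17, short of a call (limma adjusted p = 0.0861). It was called lower without DON 1 (0.0182) and with the split term (0.0387), with alternatives from 0.0153 to 0.303.

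TIMM23, the channel subunit itself, lay at 54.0, 46.8 and 52.8 FPKM in vehicle and 42.2, 51.3 and 50.5 FPKM in DON, without a call (-0.09, limma adjusted p = 0.524). A near-identical copy, TIMM23B, stood at 0.867 to 1.16 FPKM in vehicle and 0.427 to 0.674 FPKM in DON and was not tested. The authors' counting could split reads between these copies, so both levels are uncertain. TIMM50, the receptor of TIM23 on the intermembrane space side, measured 20.6, 21.3 and 16.7 FPKM in vehicle and 18.8, 15.1 and 13.3 FPKM in DON (-0.30, limma adjusted p = 0.152). Leaving out DON 1 brought it to 0.0423 (range over alternatives 0.0423 to 0.410). TIMM44, which anchors the import motor to the channel, ran from 15.6 to 20.7 FPKM in vehicle and from 22.0 to 25.3 FPKM in DON without overlap. It was not called (0.31, limma adjusted p = 0.0922), but was with the split term (0.00393) and with the GC correction (0.00581), over a range of 0.00393 to 0.263. TIMM22, the channel for carrier proteins, and TIMM21, which links TIM23 to TOM, were not called, at log2 fold changes of -0.09 and -0.0028. Both had lower vehicle means than the other tested genes of the inner membrane group.

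Of the 6 proteases, 1 was called higher (16.7%, beside 18.3% of all tested genes) and 1 lower (16.7%, beside 20.6%). Their median log2 fold change was -0.0031. YME1L1, the inner membrane protease that faces the intermembrane space and cleaves OPA1, measured 57.33, 68.30 and 72.01 FPKM in vehicle and 94.5, 98.7 and 95.0 FPKM in DON. The DON libraries were close together and all above vehicle. Its mean rose 1.46-fold from 65.9 ± 7.64 to 96.1 ± 2.31 FPKM (log2 fold change 0.54 ± 0.10, limma adjusted p = 0.00638). SPG7, a subunit of the protease that faces the matrix, stood at 38.6, 34.8 and 28.6 FPKM in vehicle and 26.3, 18.7 and 20.6 FPKM in DON. It fell 1.55-fold without overlap (-0.62 ± 0.16, limma adjusted p = 0.0204). Omitting vehicle 1 (0.0668), vehicle 2 (0.0652), DON 2 (0.0785) or DON 3 (0.0633) ended its call, and the 15 alternatives spanned 0.00148 to 0.111. AFG3L2, with which SPG7 assembles and which can also form the protease alone, lay at 58.7, 56.3 and 41.0 FPKM in vehicle and 60.5, 45.0 and 38.3 FPKM in DON. Its groups overlapped widely (-0.12, limma adjusted p = 0.655), and its sign turned with the split term.

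In the matrix, LONP1, the protease and chaperone that clears oxidised proteins, measured 20.9, 19.6 and 14.5 FPKM in vehicle and 30.2, 21.9 and 19.6 FPKM in DON. Within each side of the split DON was higher, by 0.55 and 0.48 on the log2 scale, while across the split vehicle 1 exceeded DON 3. It was not called (0.36 ± 0.19, limma adjusted p = 0.184). With the split term it was (0.00117), as with the GC correction (0.00333), and the alternatives ran from 0.00117 to 0.510. CLPP, the peptidase chamber, stood at 30.1, 29.2 and 39.9 FPKM in vehicle and 24.5, 26.1 and 29.7 FPKM in DON. The overlap was slight and there was no call (-0.29 ± 0.14, limma adjusted p = 0.148), with 0.00765 under the split term and 0.847 under the GC correction, the ends of its range. CLPX, the unfoldase that feeds CLPP, lay at 25.6, 25.9 and 24.4 FPKM in vehicle and 26.74, 28.96 and 26.89 FPKM in DON. These groups did not overlap, but the shift was small (0.12, limma adjusted p = 0.277).

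Of the 5 fusion and fission genes, an outer membrane fusion gene rose and the inner membrane one fell (40.0% called, beside 38.9% of all tested genes). Their median log2 fold change was -0.02. MFN2, the mitofusin that also tethers mitochondria to the endoplasmic reticulum, stood at 42.6, 41.3 and 33.9 FPKM in vehicle and 63.4, 53.1 and 51.2 FPKM in DON. Every DON library exceeded every vehicle library. The 1.42-fold rise, from 39.2 ± 4.69 to 55.9 ± 6.55 FPKM, had a log2 fold change of 0.50 ± 0.13 and a limma adjusted p of 0.0189, which was 0.0543 without DON 2 (range over the alternatives 0.000170 to 0.0890). MFN1, the other mitofusin, measured 20.1, 20.6 and 17.7 FPKM in vehicle and 24.5, 23.5 and 20.9 FPKM in DON. Its groups were apart by a narrow margin, and it was not called (0.23, limma adjusted p = 0.112). The split term gave 0.0137 and the GC correction 0.560, the ends of its range.

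OPA1, which fuses the inner membrane and shapes cristae, stood at 17.1, 18.2 and 15.7 FPKM in vehicle and 13.8, 14.0 and 12.9 FPKM in DON. Its values were lower in each DON library than in any vehicle library, a 1.25-fold fall from 17.0 ± 1.26 to 13.6 ± 0.563 FPKM (-0.30 ± 0.09, limma adjusted p = 0.0334). The fall was no longer called when vehicle 1 (0.0791), vehicle 2 (0.112), DON 2 (0.0917) or DON 3 (0.114) was omitted, with alternatives between 0.0192 and 0.114. DNM1L, the fission GTPase, lay at 23.9, 23.9 and 29.5 FPKM in vehicle and 21.1, 26.6 and 28.5 FPKM in DON, and nothing separated the groups (-0.02, limma adjusted p = 0.907). FIS1, its outer membrane adaptor, was the most abundant of the 5, at 164, 181 and 138 FPKM in vehicle and 152, 128 and 119 FPKM in DON. The values overlapped between vehicle 3 and DON 1 (-0.28, limma adjusted p = 0.146).

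Of the 13 calls, 7 held in all 6 fits that left out 1 library and in every other alternative that gave them a value. These were TIMM17A, TOMM70A and YME1L1, which rose, and TOMM40, TOMM40L, TIMM8B and TOMM5, which fell. The other 6 were MFN2, OPA1, SPG7, TIMM9, TIMM13 and TOMM34, which each lost the call in at least 1 such fit. How many of all called genes held in this way was not counted, so the 7 cannot be set against a background.

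Partners and paralogs were also compared directly, as ratios taken within each library for 8 pairs that were chosen after their values had been seen. A ratio within a library does not depend on how that library was scaled. It can still depend on GC content where the genes of a pair differ in it, and no ratio was taken after the GC correction. With that correction the log2 fold changes of CLPX and CLPP were 0.01 and -0.06, instead of 0.12 and -0.29. Those of MFN2 and MFN1 were 0.55 and 0.11, instead of 0.50 and 0.23. The smallest exact two-sided permutation p that 3 libraries against 3 can give is 0.1, so no pair could pass 0.05. The groups did not overlap for TIMM17A to TIMM17B, TOMM40 to TOMM22, TOMM70A to TOMM20, SPG7 to AFG3L2, CLPX to CLPP and MFN2 to MFN1, each with the exact permutation p of 0.1 (0.133 after Benjamini-Hochberg adjustment over the 8). Since the pairs were picked for their values, this number of them says nothing beyond the choice, and 51.5% of single tested genes do not overlap either. TIMM17A to TIMM17B stood at 1.66, 1.57 and 2.03 in vehicle and 2.84, 4.12 and 4.98 in DON, so the ratio of the groups' geometric means was 2.22. TOMM40 to TOMM22, channel to central receptor, stood at 0.416, 0.415 and 0.454 in vehicle and 0.226, 0.221 and 0.220 in DON, a 1.92-fold lower ratio with almost no spread in DON. TOMM70A to TOMM20, a receptor to another, went from 0.209 ± 0.0116 to 0.303 ± 0.0131. SPG7 to AFG3L2 went from 0.658 ± 0.0399 to 0.463 ± 0.0663. On the sides of the split this ratio in DON was 0.682 and 0.679 of that in vehicle. The sides were also close for TOMM70A to TOMM20 (1.41 and 1.43). They lay further apart for CLPX to CLPP (1.26 and 1.64) and TIMM17A to TIMM17B (1.76 and 2.23). CLPX to CLPP went from 0.784 ± 0.150 to 1.04 ± 0.114 and MFN2 to MFN1 from 2.01 ± 0.101 to 2.43 ± 0.165. In the remaining pairs the groups overlapped. TIMM9 to TIMM10 went from 0.574 ± 0.245 to 1.27 ± 0.446 (exact permutation p = 0.2), and TIMM8A to TIMM13 from 0.405 ± 0.050 to 0.488 ± 0.0947 (exact permutation p = 0.3).

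**Figure D4:**
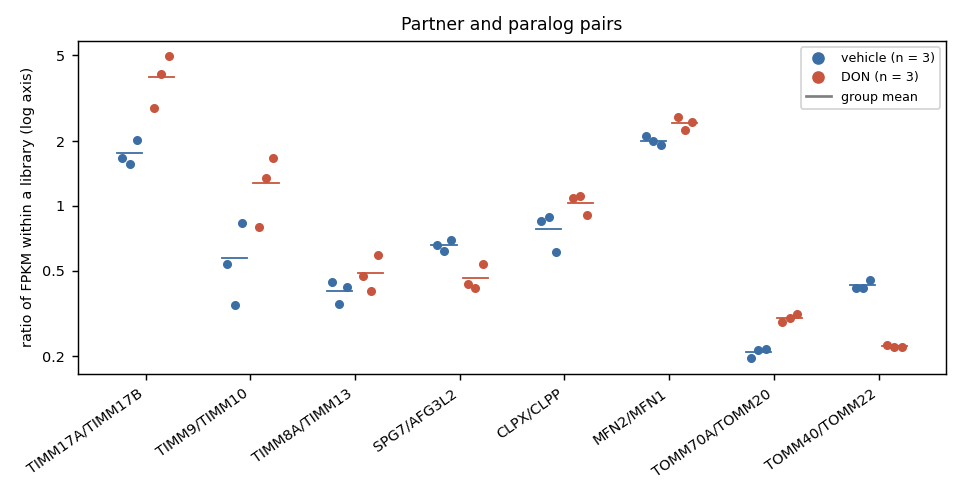
Ratio of FPKM of the first to the second gene of 8 pairs within each library, on a log axis, with vehicle in blue, DON in red (n = 3 each) and a line at the group mean. The mean of TIMM17A/TIMM17B goes from 1.75 to 3.98 and that of TOMM40/TOMM22 from 0.428 to 0.223 without overlap, while TIMM9/TIMM10 and TIMM8A/TIMM13 overlap.

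Of 21 other genes of protein import and assembly, 1 was called higher and 3 lower (19.05%, beside 38.9% of all tested genes), with a median log2 fold change of -0.0080. GRPEL2, a nucleotide exchange factor of the mitochondrial HSP70 motor, rose from 5.74 ± 0.972 to 10.9 ± 0.496 FPKM (limma adjusted p = 0.00221). MIPEP, a matrix peptidase that trims imported precursors, fell from 36.9 ± 2.44 to 20.4 ± 1.01 FPKM (limma adjusted p = 0.000581). AGK, a lipid kinase that is also a TIM22 subunit, fell from 2.11 ± 0.666 to 1.11 ± 0.0411 FPKM. PMPCA, a subunit of the peptidase that cleaves presequences from imported proteins, fell from 53.2 ± 7.29 to 39.1 ± 5.86 FPKM. Both were near the threshold (limma adjusted p = 0.0380 and 0.0497). AGK missed the threshold when vehicle 2 or any of the DON libraries was left out (up to 0.115), and PMPCA when vehicle 1, vehicle 2, DON 2 or DON 3 was (up to 0.145). Over all alternatives AGK ran from 0.0246 to 0.148 and PMPCA from 0.00443 to 0.193.

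Of 12 matrix chaperones and mitochondrial stress genes, 3 rose and 1 fell (33.3%, beside 38.9% of all tested genes), and the median log2 fold change was 0.10. ATF4, a transcription factor of the integrated stress response, rose from 191 ± 11.4 to 381 ± 39.1 FPKM and its target DDIT3 (CHOP) from 34.2 ± 5.89 to 209 ± 26.5 FPKM (limma adjusted p = 0.000557 and 8.41e-05). HTRA2, a protease of the intermembrane space, rose from 13.01 ± 0.465 to 18.8 ± 1.64 FPKM (limma adjusted p = 0.00599). The subunits of the matrix folding chamber differed. HSPD1, its barrel, stood at 515, 567 and 462 FPKM in vehicle and 664, 592 and 534 FPKM in DON with overlap and no call (limma adjusted p = 0.198). HSPE1, its lid, fell without overlap, from 218 ± 28.1 to 145 ± 16.6 FPKM (limma adjusted p = 0.0120).

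The list of other proteases and prohibitins shares MIPEP, HTRA2, PMPCA, PMPCB and OMA1 with those above. It had 3 of 14 called higher (21.4%, beside 18.3% of all tested genes) and 4 lower (28.6%, beside 20.6%), with a median log2 fold change of 0.08. PHB, the prohibitin scaffold of the inner membrane, fell from 89.8 ± 5.71 to 57.3 ± 0.722 FPKM (limma adjusted p = 0.00122). LACTB, a filament-forming protease of the intermembrane space, rose from 19.1 ± 1.26 to 28.0 ± 2.31 FPKM (limma adjusted p = 0.00548). Among 14 other regulators of fission and fusion, 5 rose (35.7%, beside 18.3% of all tested genes) and 2 fell (14.3%, beside 20.6%). MTFR1, MTFP1 and SLC25A46, which are linked to mitochondrial division and shape, rose from 47.9 ± 1.89 to 78.0 ± 4.96, from 22.1 ± 2.86 to 35.1 ± 2.64 and from 21.1 ± 1.24 to 33.7 ± 3.89 FPKM (limma adjusted p = 0.00106, 0.00536 and 0.00382). MTFR2, a relative of MTFR1, fell from 9.10 ± 0.354 to 5.66 ± 1.28 FPKM (limma adjusted p = 0.0179, and 0.0508 without vehicle 2, with a range over the alternatives of 0.00179 to 0.0933). Of 8 genes of the cristae-organising MICOS list only OPA1 was called (12.5%, beside 38.9% of all tested genes), and the median log2 fold change was -0.30. The groups did not overlap for 5 of the 8 (62.5%, beside 51.5%), and with the split term 4 were called lower.

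The mitophagy list, genes for the removal of whole mitochondria, had 3 of 11 tested genes called higher and 1 lower (36.4%, beside 38.9% of all tested genes). OPTN, an autophagy receptor, rose from 80.3 ± 4.93 to 149 ± 14.3 FPKM (limma adjusted p = 0.000817). The outer membrane receptors BCL2L13 and BNIP3L rose from 15.6 ± 1.67 to 22.0 ± 1.03 and from 63.4 ± 3.86 to 88.3 ± 8.17 FPKM. Their limma adjusted p was 0.0106 and 0.00971, and that of BNIP3L was 0.0504 without DON 2 (range over the alternatives 0.00115 to 0.0504). USP30, a deubiquitinase that opposes mitophagy, fell from 7.04 ± 1.19 to 4.23 ± 1.01 FPKM (limma adjusted p = 0.0293), a call that ended when vehicle 2, vehicle 3, DON 1 or DON 2 was left out (up to 0.0759, and 0.00110 to 0.143 over the alternatives). In the list for mitochondrial biogenesis and DNA upkeep, none of 15 tested genes was called higher and 2 lower (13.3%, beside 38.9% of all tested genes). With the split term 1 was called higher and 4 lower (33.3%, beside 52.6% of all tested genes). TFAM, which packages mitochondrial DNA, fell from 23.81 ± 0.552 to 19.03 ± 1.03 FPKM, and the DNA polymerase POLG from 10.8 ± 0.873 to 7.87 ± 1.17 FPKM (limma adjusted p = 0.0214 and 0.0342). Neither was called when vehicle 1, vehicle 2, DON 2 or DON 3 was omitted (up to 0.0755 for TFAM and 0.121 for POLG, which are also the highest values over the alternatives, the lowest being 0.00453 and 0.0105).

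Set beside other nuclear-encoded mitochondrial families, the share called was 39.4% among the import, protease and dynamics genes. It was 26.3% among the mitochondrial ribosomal proteins (12 of 80 higher and 9 lower) and 28.0% among the respiratory chain and ATP synthase subunits (5 of 82 higher and 18 lower), beside 38.9% of all tested genes. With the split term the order differed, at 60.6%, 51.2% and 63.4%, beside 52.6% of all tested genes. The median log2 fold changes were -0.11, -0.04 and -0.20. None of these differences between families was tested.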

How the data were processed

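Poly(A) RNA of 6 AsPC-1 libraries was made into directional libraries and sequenced as single 75 bp reads, per the labels' protocols. The authors deposited 1 table of FPKM values. STAR and hg19 are named in the submitters' processing notes, without versions. Which program, annotation, strand setting and scaling produced FPKM is not given in the sources used here, and reads of overlapping genes cannot be told apart. Columns headed control were matched to vehicle libraries by number. Without counts the depth is unknown, and counting intervals cannot be given. Steps between values up to 0.3 FPKM gave depths of 1.25 to 1.68 relative to vehicle 1, the shallowest library, from 46 to 72 genes at the commonest ratio. Failure marks filled 72 cells in 41 rows, none of them a row described here.

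Values were tested as log2(FPKM + 1) in limma 3.58.1 (R 4.3.3) with an intensity trend, two-sided, with Benjamini-Hochberg adjustment over 11471 genes and a limit of 0.05. A fold value printed with FPKM means is their ratio. Labels do not say how replicates were separated, so the p-values cover only the spread between these libraries, and that may be technical. Alternatives were quantile normalization, median-of-ratios scaling, a stricter filter (5 FPKM), none, a pseudocount of 0.1, no trend, a replicate block, a term for the library split, leaving out each library in turn and, chosen after seeing the data, a GC correction (98.3% of tested genes had a GC value). The library split is named by no label and was read from these same values. Members and lists were chosen with earlier results of these data known. Values in every library are given for called members with a log2 fold change of at least 0.5 in size, for the genes the selection names singly and for TOMM20, TOMM40, TIMM23, TIMM50 and HSPD1, with a few more added after their values were seen. Each wider list names up to 4 called genes by size of change. Of 99 entries in those lists, 99 were found. Some genes, HSPA9, GRPEL1 and PHB2 among them, stand in several lists, so the shares of the lists are not independent. Python 3.11.15, pandas 2.3.3, numpy 2.4.6, scipy 1.17.1 and matplotlib 3.10.9 were used, and the fits were tested on simulated data.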

Additional observations from a re-analysis of the deposited data

How the results depend on the processing

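The 33 tested genes kept a median log2 fold change below 0 in all 15 alternatives; TOMM40L and TIMM21 had no value at the 5 FPKM filter. Without a filter, 7 of them were called (3 higher, 4 lower), beside 2942 of the 26187 genes that this setting tested. The library split term called 20 (9 higher). Leaving out 1 library gave 7 to 15 calls (3 to 5 higher, 4 to 10 lower), beside 2697 to 4656 of the 11471 tested genes. The count was lowest without DON 2, and the cause was not tested. Signs turned only for genes that were not called: AFG3L2 (0.046 with the split term, -0.30 to 0.023 with 1 library left out), TOMM22 (0.055 with the split term, -0.093 to 0.066), TIMM21 (0.0062 with median-of-ratios scaling, 0.077 with quantile normalization, -0.13 to 0.12), DNM1L (-0.11 to 0.10), TOMM6 (-0.26 to 0.086) and TOMM20 (-0.035 with the GC correction).

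With the replicate number as a block, 5414 of the 11471 tested genes were called and 19 of the 33 (6 higher, 13 lower). Deviations of same-numbered libraries correlated at 0.254, -0.184 and 0.502. The same-numbered DON library was the best match for vehicle 1 and for vehicle 3, but vehicle 2 correlated best with DON 1 (0.39). The labels give no pairing, so whether same-numbered libraries belong together cannot be told. Unknown depth limits what can be said of genes near 1 FPKM, such as TOMM40L and TIMM23B.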
